A study of Mus musculus with 8 samples.

Results

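The cells described here are d7 T cells from tumors in which 10 or more unique molecular identifiers (UMIs, 1 per captured RNA molecule) came from Ifng, the gene of interferon gamma. There were 325 of them among 2069 tumor cells, 10794 d7 cells and 16404 cells in all that passed the filters. A barcode counted as a cell when it held 500 or more genes and under 15% mitochondrial UMIs. Its top hashtag, the antibody-borne barcode that marks each pooled sample, also had to reach 10 UMIs and exceed the runner-up 3-fold or more. The cells were thus chosen by their Ifng UMIs, so Ifng itself is described and not tested. Il2, Ccl3 and Ccl4 had been named as companions of Ifng from earlier results of these data, so their differences between Ifng classes are described with no test too.

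In the study, activated CD8 T cells of 3 donor mice were cultured with bone marrow stromal cells (BMSCs) whose mitochondria carried the red fluorescent protein dsRed. T cells were sorted as MitoPositive (dsRed+, with BMSC mitochondria) or MitoNegative (dsRed-), and were sequenced at once (d0) or injected into B6 mice bearing B16KVP melanoma and recovered 7 days later from spleen and tumor. Each donor gave 1 d7 library that pooled its 4 hashtagged samples, so the 3 libraries are the replicates, and the names MitoPositive and MitoNegative refer to the state at transfer. Within a donor the arms were carried by different recipient mice, so recipient and arm cannot be told apart. All groups share the activation, the co-culture and the transfer, and no T cells cultured without BMSCs were analysed here.

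Interferon gamma is the main macrophage-activating cytokine of CD8 T cells, and it raises antigen presentation in tumor cells through the receptor chains Ifngr1 and Ifngr2. Signals from the T cell receptor switch its gene on quickly through NFAT, AP-1 and NF-kB factors, together with the chemokine genes Ccl3, Ccl4 and Xcl1 and, for a shorter time, the growth factor gene Il2. Effector T cells keep the locus open but make much RNA from it only while they are stimulated, so a snapshot of a tumor holds cells with very unlike Ifng levels.

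The start regions of 4 such genes are shown because their summed levels were higher in the 325 cells than in tumor cells without Ifng UMIs. For Ifng this follows from the choice of cells, and an Il2 UMI was found in only 16.6% of the 325. RefSeq's promoter table for GRCm38.p6 held 3 of the 4 genes Ifng, Il2, Ccl3 and Ccl4. Each line gives the 250 bases before the start of Ifng (+ strand, chr10:118440796-118441045), Il2 (- strand, chr3:37125955-37126204), Ccl3 (- strand, chr11:83649379-83649628) and Xcl1 (- strand, chr1:164935523-164935772), 5′ to 3′ on the gene's strand. Capitals mark GGAAA on either strand, the core letters that NFAT proteins bind.
Ifng: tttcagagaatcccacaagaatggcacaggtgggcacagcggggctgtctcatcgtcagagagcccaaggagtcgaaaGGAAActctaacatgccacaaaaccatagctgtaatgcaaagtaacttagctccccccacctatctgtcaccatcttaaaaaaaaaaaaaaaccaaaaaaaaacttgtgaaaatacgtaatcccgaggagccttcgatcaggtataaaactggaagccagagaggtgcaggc
Il2: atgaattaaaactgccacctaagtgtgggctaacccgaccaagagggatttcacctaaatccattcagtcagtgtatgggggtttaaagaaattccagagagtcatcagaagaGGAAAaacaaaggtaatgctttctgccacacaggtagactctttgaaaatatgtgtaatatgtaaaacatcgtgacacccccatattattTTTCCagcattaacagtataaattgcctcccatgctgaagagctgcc
Ccl3: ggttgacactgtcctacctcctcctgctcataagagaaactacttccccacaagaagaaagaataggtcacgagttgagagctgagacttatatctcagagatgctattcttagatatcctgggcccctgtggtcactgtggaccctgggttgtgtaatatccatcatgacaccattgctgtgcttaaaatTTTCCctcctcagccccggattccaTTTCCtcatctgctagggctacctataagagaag
Xcl1: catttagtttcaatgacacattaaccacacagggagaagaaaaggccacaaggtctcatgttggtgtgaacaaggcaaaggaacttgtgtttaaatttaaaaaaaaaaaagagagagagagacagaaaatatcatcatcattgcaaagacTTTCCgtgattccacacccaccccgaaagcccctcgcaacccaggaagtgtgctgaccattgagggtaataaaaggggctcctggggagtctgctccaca
The core was found 1 time before Ifng, 2 times before Il2, 2 times before Ccl3 and 1 time before Xcl1. It is a common string: 55.6% of 27025 RefSeq promoters of the same length held it on either strand. The AP-1 string TGANTCA was in none of the 4 windows and in 6.87% of all promoters. These are matches of letters in a short window, not measured sites. In the GENCODE M21 annotation Ifng spans chr10:118441046-118445892, Il2 chr3:37120523-37125959, Ccl3 chr11:83647844-83649355 and its neighbour Ccl4 chr11:83662584-83664683.

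High Ifng was a feature of the tumor samples. Only 8 of 8725 spleen cells at d7 reached 10 Ifng UMIs, with 15 as the highest count in any spleen cell, and none of 5610 d0 cells did, which, at 3 cells of the total, allows a share of up to 0.293% to 0.365% in a single d0 sample. In the tumor 837 cells had no Ifng UMI, 907 had 1 to 9 and 325 had 10 or more, and 77 had 100 or more. Around the threshold the counts were continuous, with 78 tumor cells at 7 to 9 UMIs and 62 at 10 to 12. By donor, 33, 173 and 119 of the Ifng-high cells came from donors 1, 2 and 3.

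**Figure D1:**
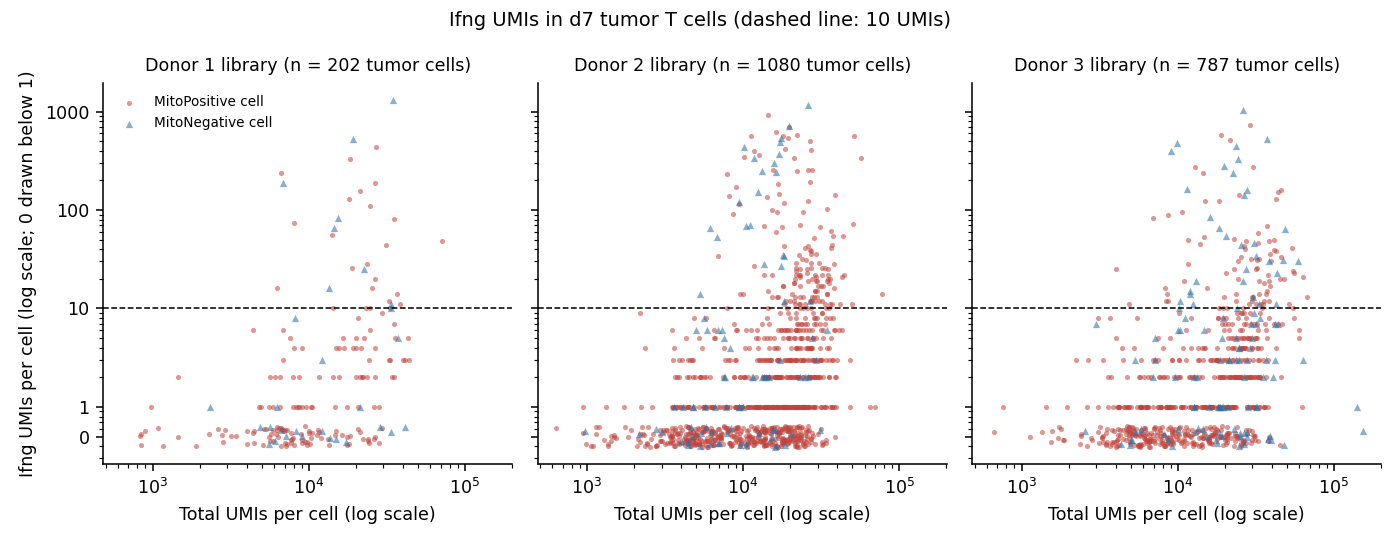
Ifng UMIs against total UMIs for each d7 tumor cell, 1 panel per donor library, both axes logarithmic, with cells at 0 drawn below 1; circles are MitoPositive cells, triangles MitoNegative cells, and the dashed line is the threshold of 10 UMIs. Of 2069 cells, 325 lie on or above the line, and these are deeper than most cells at 0.

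These few cells carried most of the Ifng RNA in the tumor. They held 92.0%, 92.1% and 85.9% of all Ifng UMIs in the MitoPositive tumor samples of donors 1, 2 and 3, and 99.2%, 98.4% and 96.5% in the MitoNegative ones. Summed per library, Ifng made up 5369, 4684 and 3065 CPM (UMIs of a gene per total UMIs, scaled to a common total) in the 325 cells and 165, 153 and 148 CPM in the cells with 1 to 9 UMIs. Spleen T cells, for comparison, had 54.8, 43.3 and 42 CPM of Ifng, with at least 1 UMI in 24.2%, 16.9% and 19.9% of them.

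Markers of T cells were present in the Ifng-high cells. UMIs of the T cell receptor complex (Cd3d, Cd3e or Cd3g) were found in all 325 cells, and Trbc2, a constant gene of the T cell receptor, stood at 4749, 5197 and 4516 CPM. Cd8a stood at 361, 292 and 252 CPM against 303, 319 and 281 in the Ifng-0 cells, and Cd8b1 at 450, 350 and 377 against 529, 469 and 445. Of 10 CD8 T cell genes in the gene test described below 0 were higher and 4 lower. Of 3 genes of natural killer and gamma delta T cells 2 were lower and Trdc was higher, at 41.2, 37.5 and 18.7 CPM against 9.88, 20.7 and 9.13. Cd4 was at 0, 0 and 0.297 CPM and Foxp3 at 0 in all 3 libraries. The summed 12 myeloid markers were at 82.4, 84.3 and 171 CPM in the 325 cells against 156, 255 and 348 in the Ifng-0 cells. The 9 melanoma markers summed to 0, 3.36 and 6.23 against 2.96, 58.6 and 749. Both sums were lower in the Ifng-high cells in 3 of 3 libraries. Tumor RNA was thus present in the Ifng-0 sums, most in donor 3. Single myeloid genes were not all lower. In donor 3 C1qa, C1qb, C1qc and Adgre1 stood at 10.98, 16.32, 12.46 and 4.154 against 7.784, 6.442, 4.295 and 2.684. The other myeloid markers were lower there, and in donor 2 all were. In donor 1 C1qa, C1qc, Apoe, Adgre1 and Cd14 stood at 4.996, 4.996, 7.495, 2.498 and 1.249 against 2.965, 0.9883, 3.953, 0 and 0. Itgam was at 0 in both classes of donor 1, and its other myeloid markers were lower. Against the cells with 1 to 9 Ifng UMIs the myeloid sum was higher in donor 3 only (171 against 125). Of the 325 cells 90 held more than 2 myeloid or melanoma UMIs. Under that limit, with a Cd3 UMI required, 134 of 172, 741 of 995 and 486 of 671 MitoPositive tumor cells stayed. For MitoNegative tumor cells it was 22 of 30, 65 of 85 and 81 of 116. Of the Ifng-high cells 16 of 24, 112 of 150 and 56 of 85 MitoPositive ones stayed, and 6 of 9, 19 of 23 and 26 of 34 MitoNegative ones. Melanoma genes such as Dct (0, 0.721 and 0 against 0, 23.0 and 354 CPM) are given as levels only.

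Depth differed between the classes. The median total was 23775, 23080 and 27432 UMIs in the Ifng-high cells, 15620, 17398 and 19237.5 in the cells with 1 to 9 UMIs and 7697, 9064 and 8945.5 in the Ifng-0 cells. All class comparisons were therefore repeated in cells of 10000 to under 30000 total UMIs and, separately, in cells thinned to 5000 UMIs with a threshold of 5. The window narrowed the gap in depth but did not close it: its Ifng-high cells still held more UMIs per cell on average in every library. Thinning re-cut the classes, so its Ifng-high class of 24, 112 and 67 cells is not the same set of cells. Counts in the depth window stand beside those of the gene lists below, and beside genes described there that lost their call in it. The d7 libraries shared 7, 2 and 2 cell barcodes pairwise.

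T cell receptor use also differed between the classes. Trbv14, a variable gene of the receptor's beta chain, made up 95.2%, 95.6% and 94.7% of all Trbv UMIs in the Ifng-high cells (99 of 104, 392 of 410 and 392 of 414 UMIs). In the cells with 1 to 9 Ifng UMIs it made up 94.9%, 92.7% and 90.3%, and in the Ifng-0 cells 83.8%, 84.2% and 84.1%. The Ifng-high class was the highest in all 3 libraries, and its values did not overlap those of the Ifng-0 class. The part of T cells with another receptor in the results below was not tested.

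The arms differed in the share of Ifng-high cells in every donor. The share was 14% (24 of 172 cells, exact binomial 95% interval 9.15 to 20%), 15.1% (150 of 995, 12.9 to 17.5%) and 12.7% (85 of 671, 10.2 to 15.4%) in the MitoPositive samples of donors 1, 2 and 3. In the MitoNegative samples it was 30% (9 of 30 cells, 14.7 to 49.4%), 27.1% (23 of 85, 18.0 to 37.8%) and 29.3% (34 of 116, 21.2 to 38.5%). The means were 13.9% ± 1.20 (SD, n = 3) and 28.8% ± 1.54 (SD, n = 3), a difference of -14.9 percentage points, with no overlap between arms. The exact two-sided permutation test gave p = 0.1, the smallest that 3 against 3 samples allow, and p = 0.25 with donors paired, also the smallest possible. With hashtags assigned by HTODemux instead the difference was -8.38 points (exact permutation p = 0.2). HTODemux placed 198 of the 325 Ifng-high cells in the tumor samples. By HTODemux the MitoPositive shares of donors 1, 2 and 3 were 11%, 12.02% and 13.12%. The MitoNegative shares were 12.82% (10 of 78 cells), 21.11% and 27.36%, so the arms overlapped and differed little in donor 1. Among cells of 10000 to under 30000 UMIs the difference was -23.5 points. The share was lower in MitoPositive in 3 of 3 donors both times. Intervals cover counting error only.

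**Figure D2:**
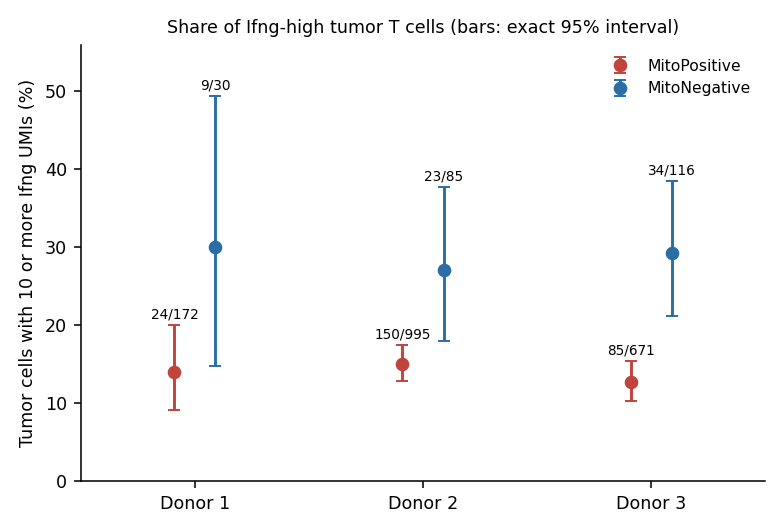
Percentage of tumor cells with 10 or more Ifng UMIs in each hashtagged tumor sample, by donor and arm; points are shares, bars exact binomial 95% intervals, and the labels give Ifng-high cells of all tumor cells. The 3 MitoNegative samples lie at 27.1 to 30% and the 3 MitoPositive samples at 12.7 to 15.1%.

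The MitoNegative Ifng-high cells also held more Ifng RNA each. The median among Ifng-high cells was 66, 121 and 39 UMIs in the MitoNegative samples and 36, 22 and 25 in the MitoPositive ones. Of the Ifng-high cells, 55.6%, 69.6% and 44.1% had 50 or more UMIs in the MitoNegative samples, against 41.7%, 30.7% and 24.7% in the MitoPositive ones. Every MitoNegative value was above every MitoPositive value on both measures, while the MitoNegative cells were shallower: the median total of the Ifng-high cells was 19115, 15758 and 24903.5 UMIs against 24505, 25015 and 29980. Below the threshold the arms overlapped, with Ifng at 62.8, 134 and 89.7 CPM in the other MitoNegative tumor cells and 94.3, 94.7 and 99.2 in the other MitoPositive ones. As the cells were chosen on Ifng, these levels are given with no test.

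Ccl3 and Ccl4, which encode chemokines that draw monocytes, dendritic cells and other T cells, were higher in each Ifng class than in the one below it in every library. Ccl3 stood at 9.88, 11.3 and 9.93 CPM in the Ifng-0 cells of donors 1, 2 and 3, at 122, 62.8 and 54.4 in the cells with 1 to 9 Ifng UMIs, and at 1440, 1639 and 956 in the Ifng-high cells. Ccl4 stood at 230, 44.1 and 89.4 CPM, then at 765, 171 and 172, and then at 3596, 2439 and 1933. For both genes the 3 libraries of the Ifng-high class lay above all others. Over finer bins of all libraries, Ccl3 went from 149 CPM at 10 to 12 Ifng UMIs to 4929 at 100 or more, while Ccl4 was at 954 with 13 to 19 Ifng UMIs and 478 with 20 to 49 before it reached 7790 at 100 or more. By donor Ccl4 was at 439, 545 and 1674 with 13 to 19 Ifng UMIs and at 365, 467 and 505 with 20 to 49, so donor 3 weighed most in the first of these bins. At least 1 UMI of both genes was found in 74.8% of the 325 cells, and 9.85% had no UMI of Ccl3, Ccl4 or Il2.

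Il2, the growth factor that T cells make for one another, was found in fewer cells and mostly at the top of the Ifng range. It was detected in 24.2%, 15% and 16.8% of the Ifng-high cells and in 2.02%, 0.913% and 0.667% of the Ifng-0 cells. Spleen T cells, at median totals of 6824, 5489 and 7163.5 UMIs, had an Il2 UMI in 7.34%, 5.71% and 10% (11.9, 10.8 and 16.6 CPM). Over all tumor cells, whatever their Ifng, the share was 7.92%, 3.8% and 3.94% (57.7, 59.2 and 23.6 CPM), so the level was higher in tumor in every library while the share was not in donors 2 and 3. Among all tumor cells Il2 was detected in 3.30% of the 91 cells with 20 to 49 Ifng UMIs, 30.6% of the 36 cells with 50 to 99 and 41.6% of the 77 cells with 100 or more. Its level in those 77 cells was 271, 1123 and 272 CPM in donors 1, 2 and 3, the highest by far in donor 2. Single cells weighed much: the cell with most Il2 held 27 of 62, 279 of 1012 and 108 of 317 Il2 UMIs of the Ifng-high class, which without it stood at 44.1, 176 and 62.2 CPM. In donor 1 the class with 1 to 9 Ifng UMIs held 90.9 CPM of Il2, above the 77.4 of its Ifng-high class, and 105 of its 111 Il2 UMIs came from 1 cell with 4 Ifng UMIs; without that cell the class stood at 4.98 CPM. In the other 2 libraries that class held 1.90 and 2.62 CPM.

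**Figure D3:**
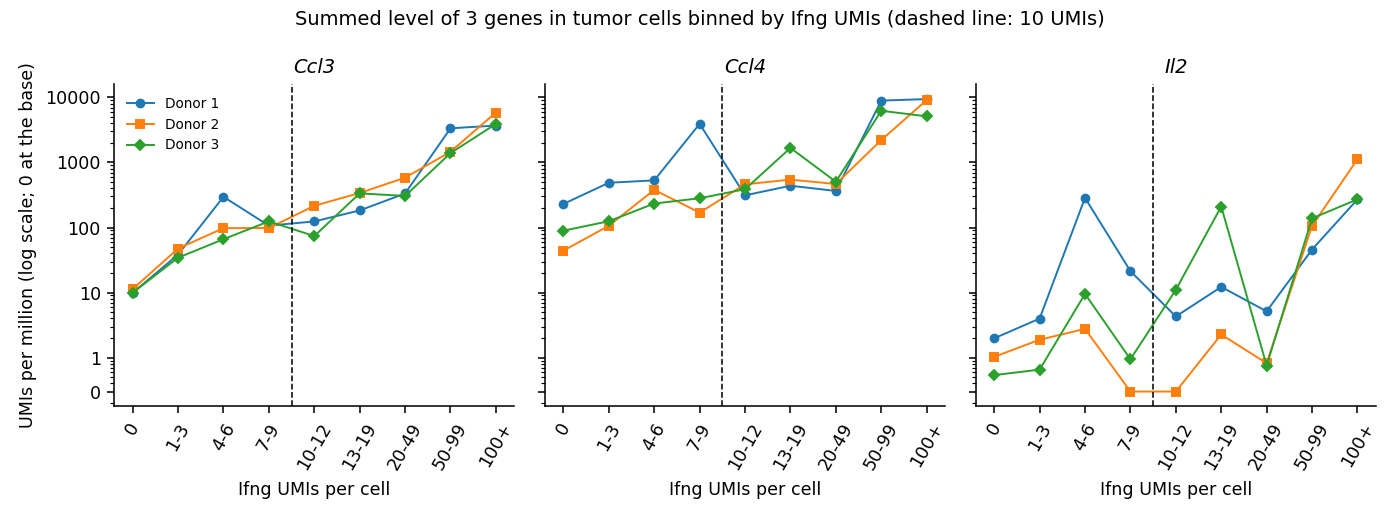
Summed level of Ccl3, Ccl4 and Il2 in tumor cells binned by their Ifng UMIs, in CPM on a logarithmic axis with 0 at its base, 1 line per donor library; the dashed line is the threshold of 10 UMIs. Ccl3 climbs from about the same level in all donors at Ifng 0 (9.88 to 11.3) to 3700.2 to 5872 CPM at 100 or more Ifng UMIs, while Il2 stays under 30 CPM up to 49 Ifng UMIs except in 1 bin of donor 1 and 1 of donor 3, where 1 cell held 105 and 108 Il2 UMIs; bins of donor 1 above 3 Ifng UMIs hold 4 to 19 cells.

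Beyond these genes, the comparison of Ifng-high with Ifng-0 cells tested 10529 genes in sums per library and class, by edgeR's quasi-likelihood test with the library as a block. At an adjusted p under 0.05 it called 2279 genes higher (21.6% of those tested) and 2272 lower (21.6%), 43.2% in all, so a list with 4 of 10 members called is near the background. Against the cells with 1 to 9 Ifng UMIs, 1068 genes were higher (10.1%) and 973 lower (9.24%), 19.4% in all. Between the cells with 1 to 9 and those with 0 Ifng UMIs, 1086 genes were higher (10.3%) and 840 lower (7.98%), 18.3% in all, but this fell to 152 of 9580 genes in the depth window, 121 of 6494 in thinned cells, 434 with no replicate block and 729 without donor 2. Levels of all 3 libraries lay above those of the Ifng-0 class for 17.4% of the genes and below for 26.5%. In the depth window 28.4% of 9580 genes were called (14.9% higher, 13.5% lower), and 27.1% of 6494 in the thinned cells (14.1% higher, 13% lower). Both arms were summed. MitoPositive cells made up 72.7%, 86.7% and 71.4% of the Ifng-high cells and 84.8%, 93.2% and 89.3% of the Ifng-0 cells. In MitoPositive cells alone 4355 of 10110 genes were called (2205 higher, 2150 lower). Of 4469 main calls testable there, 4061 were called in the same direction. Levels below are CPM in the summed cells of donors 1, 2 and 3, differences are log2, and adjusted p-values are edgeR's with Benjamini-Hochberg adjustment over all genes tested.

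Several genes of secreted signals were higher. Leaving aside Il2, Ccl3 and Ccl4, of 7 cytokine genes tested 5 were higher and 1 lower, and of 6 chemokine genes 3 were higher and 2 lower. Of 9 ligands of the TNF family 7 were higher and 2 lower. In the depth window the counts were 4 and 1 of 6 cytokines, 3 and 0 of 6 chemokines, and 5 and 0 of 9 ligands. The list medians plotted further on do include Il2, Ccl3 and Ccl4.

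Xcl1, the chemokine that attracts cross-presenting dendritic cells, separated the Ifng classes in every library. Xcl1 stood at 1200, 835 and 733 in the Ifng-0 cells, at 2657, 2113 and 1516 with 1 to 9 Ifng UMIs and at 6875, 6313 and 4452 in the Ifng-high cells, so the 3 classes did not overlap. The log2 difference of Xcl1 between Ifng-high and Ifng-0 cells was 2.78 (SE 0.06, edgeR adjusted p = 5.86e-13). Ccl1, a chemokine for Ccr8-bearing lymphocytes, stood at 1175, 1135 and 540 against 296, 150 and 47.8 (log2 difference 2.88, SE 0.25, edgeR adjusted p = 3.33e-07). Csf2, which encodes the myeloid growth factor GM-CSF, stood at 362, 245 and 133 against 18.8, 24.8 and 18.2 (log2 difference 3.46, SE 0.24, edgeR adjusted p = 4.14e-08). All 3 genes were higher in every library. Il3, another myeloid growth factor, stood at 11.2, 83.3 and 18.4 in the Ifng-high cells and at 0, 0.41 and 0 in the Ifng-0 cells.

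Ligand genes of the TNF family were higher in part. Cd40lg, which licenses dendritic cells and B cells and is best known from CD4 T cells, stood at 30, 48.0 and 19.3 against 2.96, 6.97 and 4.29 (log2 difference 2.71, SE 0.26, edgeR adjusted p = 1.13e-06), in cells almost without Cd4 RNA. Lta, the gene of lymphotoxin alpha, stood at 51.2, 37.7 and 40.6 against 2.96, 8.82 and 8.05 (edgeR adjusted p = 9.5e-07). Tnf moved less, at 38.7, 27.4 and 25.2 against 16.8, 10.7 and 22.8 (log2 difference 0.92, SE 0.22, edgeR adjusted p = 0.00387), and its difference was 1.92 in the depth window. The ranges of Tnf in the 2 classes were close but did not overlap. Fasl, the ligand of the death receptor Fas, was lower (log2 difference -0.71, edgeR adjusted p = 0.000892), and this call was lost in the depth window (-0.32, edgeR adjusted p = 0.261).

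Ccl5 and Ccl6 were the chemokine genes that were lower, and both lost the call in the depth window. Ccl6, a chemokine of myeloid cells, stood at 0, 2.64 and 13.1 against 12.8, 25.8 and 28.4 (edgeR adjusted p = 0.00131, and 0.0655 in the depth window). Ccl5, which memory and effector CD8 T cells hold in store, stood at 446, 611 and 456 in the Ifng-high cells and 2557, 1961 and 1865 in the Ifng-0 cells (log2 difference -1.94, SE 0.10, edgeR adjusted p = 4.28e-09). Among cells of 10000 to under 30000 UMIs the log2 difference of Ccl5 was 0.03 (edgeR adjusted p = 0.886), and in thinned cells it was -0.61 (edgeR adjusted p = 0.000211).

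Genes that report recent receptor signals were mostly higher. Of 24 immediate early, NFAT and AP-1 genes 16 were higher and 3 lower (15 and 1 of 23 in the depth window), and of 15 NF-kB genes 9 were higher and 2 lower (10 and 1 of 15). Nr4a1, the gene of the receptor-induced nuclear receptor Nur77, stood at 124, 158 and 232 against 97.8, 88.0 and 92.9 (log2 difference 1.06, SE 0.13, edgeR adjusted p = 1.49e-05). Myc stood at 50, 51.6 and 41.2 against 32.6, 15.8 and 13.2 (log2 difference 1.57, SE 0.18, edgeR adjusted p = 6.72e-06), and Irf8 at 322, 322 and 279 against 194, 176 and 162 (edgeR adjusted p = 3.25e-06). Nfkbia, the feedback inhibitor of NF-kB, stood at 1218, 934 and 997 against 698, 581 and 613 (edgeR adjusted p = 5.37e-08). The 3 that were lower in the first list were Fosl2, Nfatc2 and Nfatc3, with log2 differences of -0.80, -0.93 and -0.64, and of these Nfatc3 alone was called in the depth window.

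Activation receptors rose in part. Tnfrsf9, the costimulatory receptor 4-1BB, stood at 555, 597 and 592 against 314, 323 and 315 (log2 difference 0.98, SE 0.07, edgeR adjusted p = 4.13e-08). Il2ra, the high-affinity chain of the IL-2 receptor, stood at 239, 220 and 260 against 116, 98.6 and 112 (log2 difference 1.26, SE 0.08, edgeR adjusted p = 2.75e-08). The ranges did not overlap for either gene. Of 8 costimulatory receptors 3 were higher and 2 lower (4 and 1 of 8 in the depth window), the latter being Cd28 and Icos, and Icos turned to a difference of 0.23 in the depth window (edgeR adjusted p = 0.401).

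The inhibitory receptors did not move as a group: 4 of 12 were higher and 6 lower (4 and 3 of 12 in the depth window). The median log2 difference of the list was -0.48, and 0.96 over the 7 members that could be tested in thinned cells. Havcr2, the gene of TIM-3, led the higher ones at 55, 62.5 and 87.5 against 17.8, 12.1 and 23.1 (log2 difference 2.16, SE 0.14, edgeR adjusted p = 1.88e-08). Pdcd1, the gene of PD-1, stood at 116, 137 and 155 against 101.8, 112.6 and 113.3 (log2 difference 0.44, SE 0.09, edgeR adjusted p = 0.00115), with an adjusted p of 0.303 by edgeR in the depth window. Lag3 did not pass the test at 78.7, 56.5 and 52.5 against 46.5, 61.5 and 48.6 (edgeR adjusted p = 0.233), and in the depth window it was higher by 0.49 (edgeR adjusted p = 0.0201). Cd101, Cd38, Entpd1, Ctla4, Tigit and Cd200r1 were lower, and of these Entpd1, Tigit and Cd200r1 lost the call in the depth window. Of 11 tested transcription factors of effector and exhausted cells 4 were higher and 5 lower (4 and 4 of 11 in the depth window): Zbtb32, a repressor induced on activation, was highest at 106, 70.1 and 63.5 against 19.8, 16.6 and 17.7 (log2 difference 2.15, edgeR adjusted p = 1.88e-08), and Ikzf2, the gene of Helios, fell to 166, 170 and 158 from 470, 620 and 533 (log2 difference -1.66, edgeR adjusted p = 1.28e-08).

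The killing machinery split by gene. Of 15 granule genes tested 8 were higher and 4 lower (9 and 2 in the depth window). Prf1, the gene of pore-forming perforin, stood at 161, 145 and 140 against 22.7, 38.1 and 56.6 (log2 difference 1.89, SE 0.20, edgeR adjusted p = 2.78e-06). Gzmb stood at 596, 789 and 762 against 351, 247 and 405 (log2 difference 1.25, edgeR adjusted p = 8.5e-06) and Gzmc at 331, 567 and 215 against 9.88, 98.2 and 51.0 (log2 difference 2.73, SE 0.28, edgeR adjusted p = 1.86e-06). In donors 1 and 2 Gzmc was higher near the threshold, at 509.5 and 722.3 with 10 to 49 Ifng UMIs and 17.2 and 210 with 50 or more, and in donor 3 lower, at 140 and 440; between cells with 50 or more and with 1 to 49 its log2 difference was 0.27 (edgeR adjusted p = 0.668). Gzma went the other way, at 171, 115 and 156 against 869, 444 and 898 (log2 difference -2.22, SE 0.21, edgeR adjusted p = 1.09e-06), and Gzmk, Ctsw and Lamp1 were lower with it, of which Gzmk and Lamp1 lost the call in the depth window. The serpins Serpinb6b, Serpinb9 and Serpinb9b, which protect cells from their own granzymes, were all higher, with log2 differences of 1.17, 1.17 and 1.32.

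Genes of resting and memory T cells were lower without exception in the main comparison: 14 of 14 fell (median log2 difference -1.32, against -0.05 over all genes), and 10 of 14 in the depth window with none higher. In thinned cells 7 of 11 were lower, and against the cells with 1 to 9 Ifng UMIs 7 of 14, again with none higher. Tcf7, the transcription factor of stem-like and memory T cells, stood at 33.7, 19.9 and 9.50 in the Ifng-high cells, 65.5, 45.6 and 60.9 in the cells with 1 to 9 Ifng UMIs and 90.9, 91.2 and 82.4 in the Ifng-0 cells (log2 difference to Ifng 0 -2.23, SE 0.22, edgeR adjusted p = 1.55e-06). The Tcf7 levels of the 3 classes did not overlap. S1pr1, the receptor by which T cells leave tissues, stood at 16.2, 8.89 and 5.04 against 80.0, 42.9 and 60.9 (log2 difference -2.63, edgeR adjusted p = 1.72e-07). Lef1 and Il7r fell by 1.92 and 1.19 on the log2 scale. Outside this list Ccr2, a chemokine receptor, fell by 2.67, and Fgl2, a secreted fibrinogen-like protein, by 2.90, the largest drop among the 12 genes named for falling most.

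Ifng-high cells did not carry a raised interferon response. Of 21 genes of the interferon gamma response 16 were lower and 1, Psmb8, was higher (median log2 difference -1.05); in the depth window, where Psmb8 lost its call, 11 of 19 were lower and 1, the feedback inhibitor Socs1, was higher. Ifngr1, the ligand-binding chain of the interferon gamma receptor, stood at 88.7, 114 and 165 in the Ifng-high cells, 249, 274 and 325 in the cells with 1 to 9 Ifng UMIs and 422, 383 and 436 in the Ifng-0 cells (log2 difference to Ifng 0 -1.60, SE 0.11, edgeR adjusted p = 3.22e-08). These Ifngr1 levels fell from class to class with no overlap. Irf1, a transcription factor induced by interferon gamma, stood at 110, 71.1 and 90.2 against 135, 107 and 144 (log2 difference -0.47, edgeR adjusted p = 0.000474). Of 9 genes of the type I interferon response 8 were lower, among them Irf7 and Isg15 with log2 differences of -2.25 and -1.06. In the depth window 4 of 7 were lower and 1 higher, without a call for Isg15, and in thinned cells 2 of 4 were lower. The Ifng-0 cells also held the myeloid and melanoma RNA given above, whose part in these lists was not tested; with barcodes of more than 2 such UMIs or no Cd3 UMI left out, Ifngr1 was still lower, with a log2 difference of -1.86.

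Growth genes rose together. All 18 ribosome biogenesis genes were higher (median log2 difference 1.17), and all 18 were higher in the depth window, in the thinned cells and against the cells with 1 to 9 Ifng UMIs. Srm, which makes the polyamine spermidine, stood at 169, 148 and 136 against 53.4, 43.3 and 31.1 (log2 difference 1.97, SE 0.10, edgeR adjusted p = 3.53e-09). Of 15 genes of the endoplasmic reticulum and secretion 13 were higher and 1 lower (14 and 0 in the depth window), of 12 amino acid genes 10 and 0 (8 and 0 of 11), and of 10 heat shock genes 7 and 0 (7 and 0 of 10). Hspd1, a chaperone of the mitochondrial matrix, stood at 813, 612 and 792 against 322, 221 and 278 (log2 difference 1.55, SE 0.07, edgeR adjusted p = 2.06e-09). Of 17 glycolysis genes 12 were higher and 1 lower (11 and 0 of 17 in the depth window), led by Hk2, the enzyme of the first step, at 220, 166 and 194 against 83.0, 63.6 and 101 (log2 difference 1.31, edgeR adjusted p = 1.43e-07).

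Of the 13 transcripts that mitochondria themselves encode, 7 were lower and 1 higher (0 higher and 10 lower in the depth window, 0 higher and 3 lower in thinned cells). mt-Co1, a subunit of cytochrome oxidase, stood at 3258, 3558 and 3179 against 5009, 5170 and 4506 (log2 difference -0.45, SE 0.04, edgeR adjusted p = 2.11e-07). As a share of all UMIs, mitochondrial transcripts were 1.83%, 1.83% and 1.69% in the Ifng-high cells and 2.34%, 2.31% and 2.20% in the Ifng-0 cells. These measure mitochondrial RNA as a share of a cell's RNA and do not separate the T cells' own mitochondria from those of BMSCs.

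Calls of cell cycle genes differed between all tumor cells and the depth window or thinned cells. All 18 S phase genes were higher in the main comparison (median log2 difference 0.64), but 2 of 18 were higher and 1 lower in the depth window (median 0.03), and 1 of 18 was higher in thinned cells (median -0.05). Of 18 G2/M genes 7 were higher and 3 lower, against 0 and 8 in the depth window. Cholesterol synthesis went the same way, with 8 of 14 higher and 1 of 14 in the depth window. Mki67, the proliferation marker, stood at 78.7, 72.8 and 103 in the Ifng-high cells, within the range of the Ifng-0 cells, which began at 64.2 and 83.5 in donors 1 and 2 and was higher still in donor 3 (edgeR adjusted p = 0.999), and its difference in the depth window was -0.81 (edgeR adjusted p = 0.000178).

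Of 12 apoptosis genes 4 were higher and 2 lower (4 and 1 of 12 in the depth window), near the background share. Among survival genes Bcl2 stood at 53.7, 64.1 and 70.0 against 212, 212 and 194 (log2 difference -1.57, SE 0.09, edgeR adjusted p = 1.28e-08), while its relatives Bcl2l1, at 170, 114 and 116 against 67.2, 61.3 and 55.3 (log2 difference 1.14, edgeR adjusted p = 3.72e-07), and Bcl2a1d were higher. Bcl2a1d shares most of its sequence with Bcl2a1b, so reads of the pair may be split between them. The death-promoting Bcl2l11 was lower (log2 difference -0.98, edgeR adjusted p = 2.13e-06). Of 11 tested genes known to control Ifng RNA 2 were higher and 6 lower, against 2 and 3 of 11 in the depth window and 1 and 1 of 9 in thinned cells. Zfp36l2, whose protein binds AU-rich elements and holds Ifng RNA silent in memory T cells, stood at 63.7, 72.8 and 108 against 272, 228 and 276 (log2 difference -1.49, SE 0.10, edgeR adjusted p = 4.13e-08), and Zfp36 of the same family was higher by 0.58 (edgeR adjusted p = 0.00634). Stat4, which carries the IL-12 signal to the locus, stood at 438, 425 and 503 against 543, 479 and 537 and did not pass (edgeR adjusted p = 0.32).

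**Figure D4:**
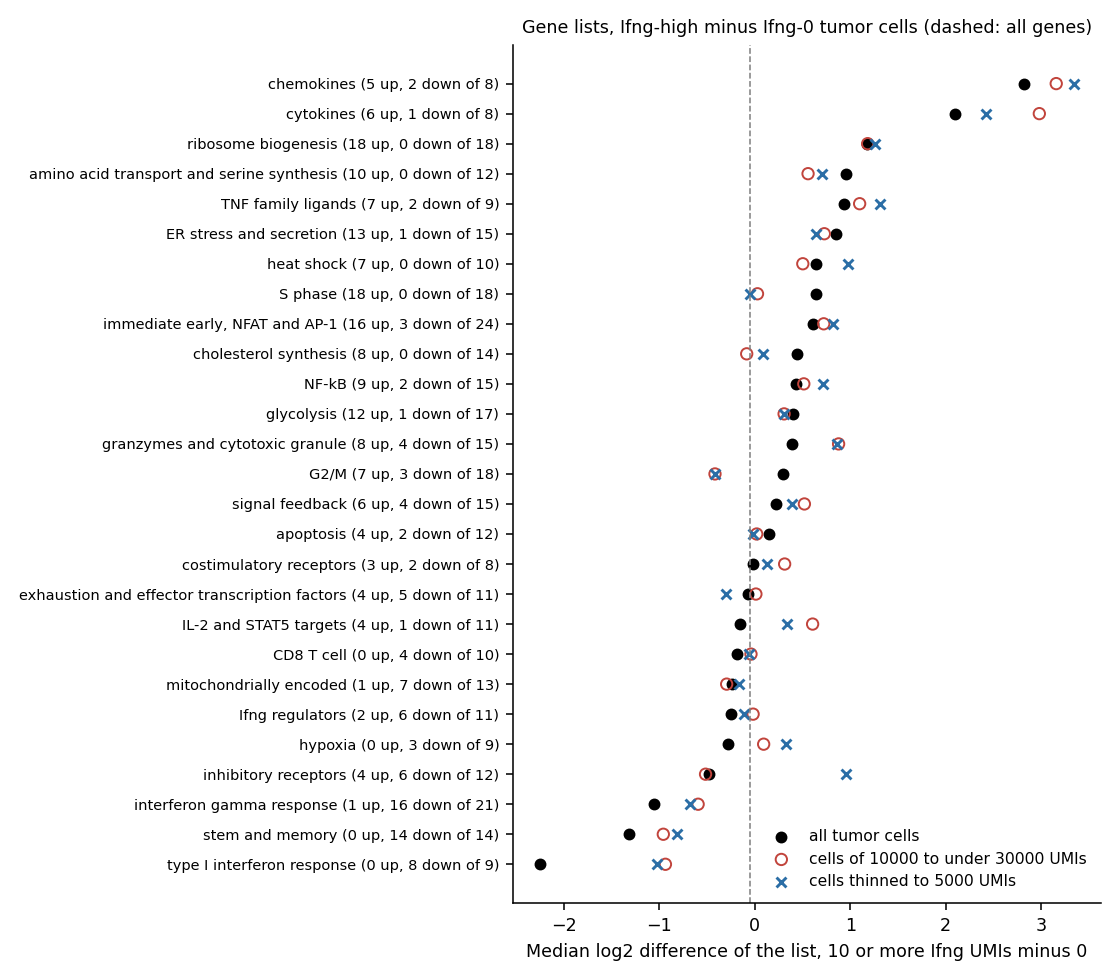
Median log2 difference between Ifng-high and Ifng-0 tumor cells for each gene list, with filled circles for all tumor cells, open circles for cells of 10000 to under 30000 UMIs and crosses for thinned cells; labels give members called higher and lower of those tested, and the dashed line is the median of all genes. Cytokine, chemokine and ribosome biogenesis genes lie to the right on all 3 measures, while the S phase list lies at 0.64 in all tumor cells and at 0.03 and -0.05 in the window and in thinned cells.

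**Figure D5:**
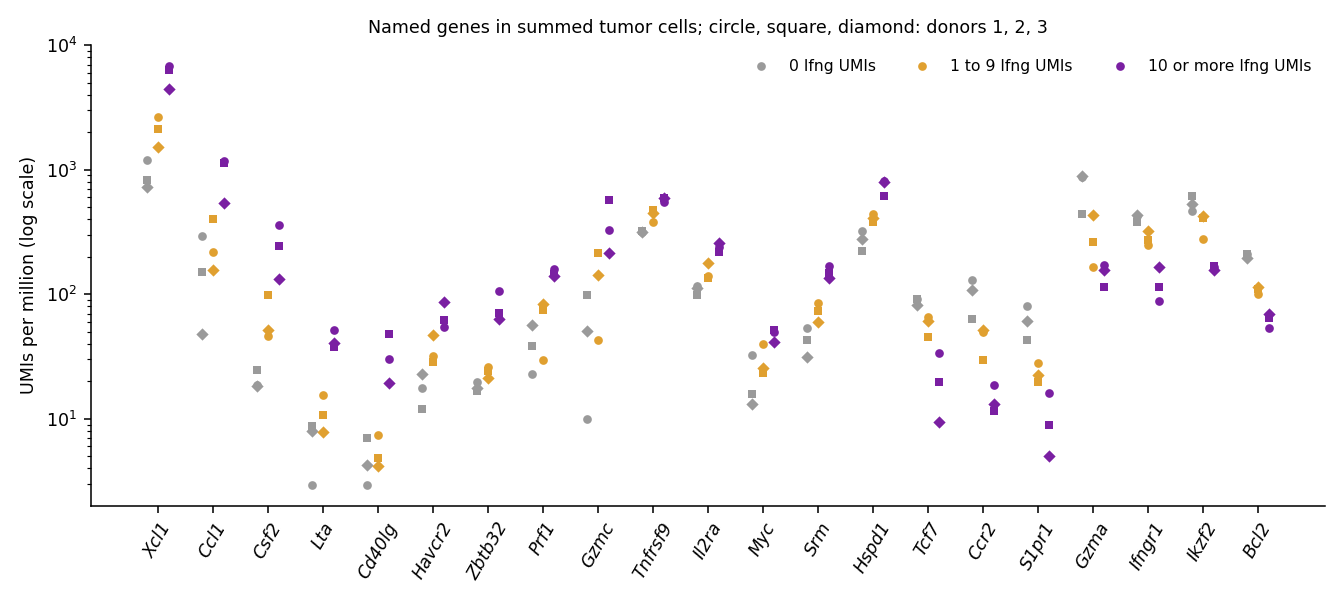
Level of 21 genes in summed tumor cells on a logarithmic axis in CPM, with 1 point per donor library (circle, square and diamond for donors 1, 2 and 3) and colors for the 3 Ifng classes. Cells with 1 to 9 Ifng UMIs lie between the other classes for most genes shown, and Xcl1 and Ifngr1 separate all 3 classes in opposite directions.

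The 325 cells were not uniform. Divided after the values were seen into 212 cells with 10 to 49 and the rest with 50 or more Ifng UMIs, they are described here with no test. Ccl3 was at 214, 409 and 254 in the lower part and at 3597, 4480 and 3053 in the upper part of donors 1, 2 and 3, and Xcl1 at 3798, 3996 and 3090 against 12280, 11660 and 8522. Myc was also higher in the upper part of every library (89.6, 93.8 and 72.2 against 27.4, 33.4 and 30.9), while Ikzf2 was lower (99.9, 57.2 and 36.7 against 204, 219 and 199), and so was Ifngr1 (37.9, 62.0 and 80.4 against 118, 136 and 193). The upper part was shallower, with a median total of 18392, 17047 and 22011 UMIs against 25956.5, 25896 and 30756, and the part of depth in the list counts was not tested. It also took in a larger share of the MitoNegative than of the MitoPositive Ifng-high cells in every donor, as given above. The part of arm was not tested either. Cell cycle genes were lower in the upper part: 17 of 18 S phase genes and 15 of 18 G2/M genes in all 3 libraries, against 29.6% of all genes tested. Ribosome biogenesis genes were higher in all 3 libraries for 13 of 18, against 13.4% of all genes. Of 14 genes of resting and memory T cells, 5 were higher in the upper part in all 3 libraries and 2 lower. All 13 mitochondrially encoded transcripts were lower in the upper part.

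Within the Ifng-high cells, the arms were compared gene by gene in 5 summed samples, since the MitoNegative sample of donor 1 held 9 such cells, under the minimum of 10. edgeR's quasi-likelihood test with the donor as a block called 0 of 7364 genes (0%), with 602 at an unadjusted p under 0.05, and DESeq2 called 2. With barcodes of more than 2 myeloid or melanoma UMIs left out edgeR called 91 genes, and without the filter on low counts 239. The 5 genes with the smallest p, none of which passed, were Tyrobp, Slc16a11, Cdkn2a, S100a10 and Ccdc162, all at an edgeR adjusted p of 0.167. Slc16a11 passed with all 6 samples (edgeR adjusted p = 0.039) and S100a10 among cells with 50 or more Ifng UMIs (edgeR adjusted p = 0.0178), both higher in MitoPositive cells. Both settings were chosen after seeing the data and had no minimum of cells. They thus kept the MitoNegative sample of donor 1, with 9 cells and, at 50 or more Ifng UMIs, 5 cells. Over all settings of the arm fit Slc16a11 and S100a10 were each called in 6, and Crabp2 in 7. Settings not chosen after seeing the data were among these. The settings share cells, so they are not independent. S100a10, which encodes an annexin partner, stood at 979, 1197 and 1058 CPM in the MitoPositive and 809, 476 and 544 in the MitoNegative samples of donors 1, 2 and 3. Tyrobp, an adaptor of myeloid and natural killer cells, stood at 6.6, 2.35 and 0.400 against 0, 50.3 and 34.5.

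Il2, Ccl3 and Ccl4 were at lower levels in the MitoPositive sample of each donor, without passing in the main fit of 5 samples. Ccl3 and Ccl4 were each called in 4 other settings of the arm fit, which share cells with it, and Il2 in fewer. Ccl3 stood at 1308, 1281 and 782 CPM in the MitoPositive and 1855, 5696 and 1456 in the MitoNegative Ifng-high cells (log2 difference MitoPositive minus MitoNegative -1.58, SE 0.27, edgeR adjusted p = 0.25 over 5 samples). Ccl4 stood at 2925, 1904 and 1629 against 5692, 8503 and 2806 (log2 difference -1.53, SE 0.29, edgeR adjusted p = 0.258), and Il2 at 11.5, 228 and 56.4 against 283, 414 and 202 (edgeR adjusted p = 0.258). Gzmc went the other way, at 411, 615 and 238 against 82.4, 23.7 and 151 (edgeR adjusted p = 0.581). Among cells with 50 or more Ifng UMIs the differences of Ccl3 and Ccl4 were -0.52 and -0.42 (edgeR adjusted p = 0.413 and 0.713), while Gzmc passed there with a log2 difference of 2.13 (edgeR adjusted p = 0.00281). That threshold was chosen after seeing the data, and its fit had no minimum of cells. It included the MitoNegative sample of donor 1 with 5 such cells, and the 15 such cells of donor 1 held 17.2 CPM of Gzmc. Arm and recipient mouse cannot be told apart in any of these values.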

How the data were processed

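The deposited values are UMI counts per gene and cell from droplet single-cell RNA sequencing, made with Cell Ranger 7.0.0 on mm10 and handled with Seurat 4.0.5, per the submitters' processing notes. Hashtag counts in the same deposited matrices assigned cells to samples, and hashtag doublets were removed by the ratio of the top 2 hashtags. No other doublet caller was run. Members and gene lists were chosen with earlier results of these data known.

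Counts were summed per library and Ifng class and tested in edgeR 4.0.16 (R 4.3.3; TMM, filterByExpr, quasi-likelihood, Benjamini-Hochberg), with the library as a block. Each library is 1 donor, so replicate numbers pair the sums, and the d7 sums of 1 library share its cells' handling. The fit was tested on simulated data, recovering 74.5% of 2-fold and 95% of 4-fold changes among 10530 genes for Ifng-high against Ifng-0 cells, and 37.8% and 96.7% among 7365 genes for the arms, with 8 and 9 unchanged genes called. The simulation changed few genes and gave genes of like level the same spread. In the data 43.2% of genes were called between these classes, and genes of like level can differ in spread. The recovered shares thus need not hold for the data. DESeq2 1.42.0, HTODemux (Seurat 5.3.0), other thresholds and the depth settings were alternatives, and the window of 10000 to under 30000 UMIs and the threshold of 50 UMIs were chosen after seeing the data.

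Genes named by rule were the 12 called genes with the largest change in each direction at an average log2 level of 5 or more and with the same sign in all 3 libraries, and up to 4 per list, and for the arms, where fewer than 3 genes were called, the 5 with the smallest p. Other genes of the lists were named after their values were seen. The sums held 800586 to 8411620 UMIs per library and class, and the MitoNegative donor 1 sample (9 cells) was left out of the arm fit. Some genes that the rule names are not reported here.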

Additional observations from a re-analysis of the deposited data

How the results depend on the processing

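The comparison of Ifng-high with Ifng-0 cells called 4551 genes, against 2717 among cells of 10000 to under 30000 UMIs (chosen after seeing the data) and 1761 in cells thinned to 5000 UMIs, where fewer genes and cells entered. Leaving out 1 library at a time gave 3039 to 4356. Replicate numbers pair the sums because each is 1 donor, and without that replicate block 3561 genes were called. Against cells with 1 to 9 Ifng UMIs, 2041 genes were called, 1264 by DESeq2, 759 with no replicate block, and 767 to 1826 with 1 library left out (957 without donor 2 and 767 without donor 3). Between the arms within Ifng-high cells edgeR called 0 genes, against 2 by DESeq2, 20 with DESeq2 size factors, 91 without barcodes holding myeloid or melanoma RNA, 239 with no filter on low counts, 9 with no replicate block, 11 and 13 at thresholds of 20 and 5 UMIs, and, chosen after seeing the data, 3 with all 6 samples and 10 at a threshold of 50. It called 0 without donor 1 and by HTODemux. The fits without donor 2 or donor 3 left no residual degrees of freedom and gave no value. The difference in share between arms, -14.9 points, was -18.13 in thinned cells, -8.38 by HTODemux, -23.5 among cells of 10000 to under 30000 UMIs, -11.62 at a threshold of 50 UMIs, and -14.0 to -16.3 with 1 donor left out; with donors paired as a replicate block it was -14.89 (exact p = 0.25). Of 134 genes, 5 turned direction: Cd8b1 0.077, Icos 0.23, Cdc6 -0.17 and Hmmr -0.13 among cells of 10000 to under 30000 UMIs, and Icos 0.24, Cdc6 -0.11 and Fdps -0.22 in thinned cells. The cause was not tested. Of 2306 values of these 134 genes, 2173 kept their direction and side of the threshold and 126 no longer passed. For the arms within Ifng-high cells 10 genes were followed, among them the 5 with the smallest p. Of their 100 values, 59 kept direction and side of the threshold and 0 turned direction. The other 41 passed, although the main fit did not call the gene. The number of cells limits the MitoNegative values, with 9 to 34 Ifng-high cells per sample.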
